A study of Mus musculus with 12 samples.

Results

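The 10 genes described here encode peptides that act on blood vessels or on opioid receptors, and the receptors and receptor partners of such peptides: Edn1, Ednra, Ednrb, Agtr1a, Apln, Adm, Ramp1, Ramp2, Ramp3 and Penk. They were matched by mouse gene symbol among the 49315 genes of the count tables, all 10 were found, and all 10 passed the filter on low counts that left 17164 genes for testing. The genes were picked with earlier results on these same libraries in view, including differences between PNU and DMSO for several of them. Their levels and differences are therefore a description, and no p-value is given for any of the 10.

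Poly(A) RNA was sequenced from cultured wild-type (WT) mouse cells labelled primary Müller glia, the main supporting glia of the retina, which were co-cultured through transwell membranes with primary retinal pigment epithelium (RPE) cells. The RPE cells had been given 100 nM PNU-282987 (here PNU), which activates α7 nicotinic acetylcholine receptors, in DMSO, or DMSO alone as vehicle. The co-culture lasted 2 h or 6 h, which with 3 libraries for each treatment and time makes 12 libraries in 4 groups. All groups are passaged cultures that were begun without serum and then grown in serum, and the labels give the vehicle as 0.1% DMSO in one place and 1% in another. The labels number biological replicates but name no animal or culture for them, so p-values measure the spread between libraries, which may be technical.

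Endothelin 1, the product of Edn1, is a strong constrictor of blood vessels that is cut from a larger precursor by endothelin-converting enzymes and acts through the receptors encoded by Ednra and Ednrb. In the retina, Ednra is known from pericytes and vascular smooth muscle, and Ednrb from astrocytes and reactive Müller glia. Agtr1a encodes the type 1 receptor for angiotensin II, another constrictor, and Apln encodes apelin, a peptide that acts on the receptor Aplnr and takes part in vessel growth. Adm encodes adrenomedullin, a dilator whose receptor is the protein Calcrl paired with the membrane partner encoded by Ramp2 or Ramp3, whereas Calcrl paired with the Ramp1 product is the receptor for calcitonin gene-related peptide. Penk encodes the precursor of the enkephalins, which act mainly on delta and mu opioid receptors.

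The libraries held 44332013 to 66518799 counts. Levels are CPM, which are counts scaled to library totals of a common size after TMM normalization, and 3 counts, taken as the floor of detection for counting error alone, correspond to 0.0458 to 0.0692 CPM. Several libraries of the same group were nearly identical: replicates 2 and 3 of both PNU groups and the 3 replicates of DMSO at 6 h had pairwise coefficients of variation of 0.0163 to 0.0223, against 0.148 to 0.384 for the other pairs. They still differed by more than sampling noise, with a chi-square per gene of 2.02 to 3.25, and were counted as separate libraries. A pair of libraries stood apart from their groups. Replicate 3 of DMSO at 2 h was closest in overall profile to replicate 1 of PNU at 2 h, and replicate 1 of PNU at 6 h to replicate 1 of DMSO at 6 h. Replicate 1 of PNU at 2 h was in turn closest to replicate 3 of DMSO at 2 h. Their root mean square log2 distance was 0.226, against a mean of 0.32 from that PNU library to its own group. Ddx3y is a gene of the Y chromosome. At 2 h it had 2.33, 0.0889 and 0.0154 CPM in PNU, against 0.0351, 0.0374 and 5.05 CPM in DMSO. At 6 h it had 0.14, 7.30 and 6.66 CPM in PNU, against 0.0442, 0.037 and 0.138 CPM in DMSO. Replicate 1 of each PNU group and replicate 3 of DMSO at 2 h thus differed from their groups in Ddx3y. Xist, a gene of the X chromosome, had 0.138, 0.0667 and 0.0923 CPM in PNU at 2 h. In DMSO at 2 h Xist had 0.808, 0.859 and 0.0473 CPM. At 6 h it had 0.436, 2.41 and 2.11 CPM in PNU, against 1.13, 1.2 and 0.946 CPM in DMSO. The labels give no sex, and the part of these differences in the levels of other genes was not tested.

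The promoters of 4 of the genes are shown because the differences of Edn1, Apln and Ramp3 between PNU and DMSO passed the test across all genes at 1 or both times, and Adm was the most abundant of the 10 per length. Each is the RefSeq window (GRCm38.p6) from 250 bases before to 50 bases after the annotated start, given 5′ to 3′ on the gene's strand. Windows were found for 7 of the 10 genes and not for Agtr1a, Ramp2 or Penk. Agtr1a at 2 h and Penk at 6 h passed the test as well but could not be shown. Edn1 is at chr13:42301226-42301525 on the plus strand, Apln at chrX:48034804-48035103 on the minus strand, Ramp3 at chr11:6658283-6658582 on the plus strand and Adm at chr7:110627407-110627706 on the plus strand. Capitals mark matches to ACGTG or GCGTG, the core letters bound by hypoxia-inducible factors, the second also bound by the aryl hydrocarbon receptor, on either strand, so that CACGT and CACGC are matches on the opposite strand. TGANTCA and TGACGTCA, the motifs of AP-1 and of CREB, and TATAAA were searched as well, also on both strands.
Edn1: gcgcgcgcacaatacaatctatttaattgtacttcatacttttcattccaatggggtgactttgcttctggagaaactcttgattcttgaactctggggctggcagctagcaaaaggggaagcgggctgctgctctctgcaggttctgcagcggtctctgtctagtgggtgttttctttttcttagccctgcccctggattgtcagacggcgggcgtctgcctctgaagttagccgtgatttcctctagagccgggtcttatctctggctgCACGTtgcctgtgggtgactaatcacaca
Apln: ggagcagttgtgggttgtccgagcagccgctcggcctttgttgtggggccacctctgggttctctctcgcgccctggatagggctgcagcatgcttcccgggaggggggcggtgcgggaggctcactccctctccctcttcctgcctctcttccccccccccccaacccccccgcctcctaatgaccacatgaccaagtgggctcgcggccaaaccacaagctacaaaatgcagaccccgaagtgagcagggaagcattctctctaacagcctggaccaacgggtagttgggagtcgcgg
Ramp3: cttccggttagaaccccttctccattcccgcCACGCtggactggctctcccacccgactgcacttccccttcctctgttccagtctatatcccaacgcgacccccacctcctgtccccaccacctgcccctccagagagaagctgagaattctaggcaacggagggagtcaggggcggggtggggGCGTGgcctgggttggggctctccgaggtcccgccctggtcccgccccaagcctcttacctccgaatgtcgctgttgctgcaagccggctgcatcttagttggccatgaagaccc
Adm: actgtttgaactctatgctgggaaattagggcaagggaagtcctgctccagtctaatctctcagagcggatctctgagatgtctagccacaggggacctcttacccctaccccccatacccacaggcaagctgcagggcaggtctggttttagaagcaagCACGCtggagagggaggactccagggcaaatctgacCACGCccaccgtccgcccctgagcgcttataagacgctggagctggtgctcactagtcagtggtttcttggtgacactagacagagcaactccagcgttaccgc

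The Edn1 window held 1 match to ACGTG, 21 bases after the RefSeq start, and none to the other motifs. The Edn1 gene model used for counting begins at 42301270, inside this window and before that start. The position of the match thus holds for the RefSeq start only. The Apln window held no match to any of the 5 motifs. The Ramp3 window held matches to GCGTG at 219 and 65 bases before the start, and the Adm window at 90 and 54 bases before it. ACGTG occurs in 19.6% of the 32851 promoter windows of the same length, GCGTG in 32.4%, TGANTCA in 7.81%, TGACGTCA in 1.79% and TATAAA in 13.6%. A match is a description and not a binding site, and a window without a match says nothing about the factor.

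The 10 genes covered a wide range of abundance. In CPM per kilobase of exon, which allows levels to be compared between genes, the median over the 12 libraries was 22.3 for Adm (range 11.2 to 46.0), 14.4 for Penk (3.33 to 23.3), 8.33 for Apln (4.39 to 9.38) and 4.34 for Edn1 (2.00 to 5.89). The peptide genes thus headed the order. Among the receptors and their partners the medians were 1.70 CPM per kilobase for Ednra (0.16 to 4.33), 1.24 for Ramp3 (0.596 to 4.22), 0.323 for Agtr1a (0.036 to 1.23), 0.283 for Ramp2 (0.191 to 0.948), 0.177 for Ramp1 (0.0859 to 0.405) and 0.0324 for Ednrb (0 to 0.0895). The ranges of all neighbours in this order overlapped.

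**Figure D1:**
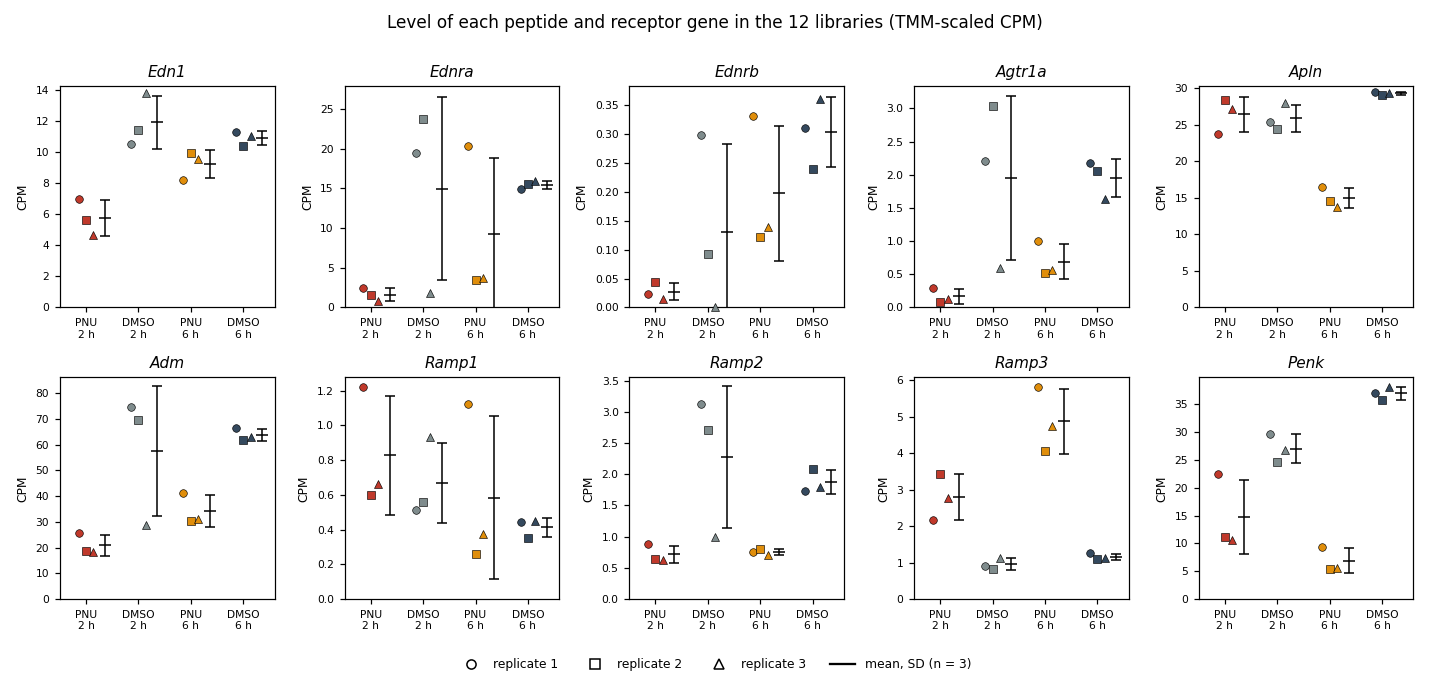
CPM of the 10 genes in each library, with 1 panel per gene and a linear axis from 0; symbols are replicates 1 to 3 and the bars are the mean and SD of 3 libraries, with bars that would pass below 0 ending at the axis. Ramp3 is higher in every PNU library than in every DMSO library at both times, Apln is lower in PNU than in DMSO at 6 h and overlaps at 2 h, and for Ednra 1 library of DMSO at 2 h and 1 of PNU at 6 h sit away from the others of their group.

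Edn1, the ligand gene of the endothelin system (ENSMUSG00000021367, GRCm38 chromosome 13, 42301270 to 42307989, plus strand), was lower in PNU than in DMSO at 2 h. It had 6.97, 5.60 and 4.68 CPM in PNU at 2 h, against 10.5, 11.4 and 13.8 CPM in DMSO at 2 h. Every PNU library lay under every DMSO library, the means were 5.75 ± 1.15 CPM in PNU and 11.9 ± 1.73 CPM in DMSO (SD, n = 3 each), and the log2 difference was -1.05 ± 0.16 (SE). At 6 h Edn1 had 8.20, 9.92 and 9.52 CPM in PNU, against 11.3, 10.4 and 11.0 CPM in DMSO. The groups were again apart, by a narrow margin, with a log2 difference of -0.24 ± 0.15.

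The endothelin receptor genes depended on single libraries. Ednra (ENSMUSG00000031616, chromosome 8, 77663031 to 77724464, minus strand), the receptor through which endothelin contracts mural cells, had 2.51, 1.51 and 0.877 CPM in PNU at 2 h, against 19.4, 23.7 and 1.84 CPM in DMSO at 2 h. DMSO replicate 3 lay among the PNU libraries, so the groups overlapped; the log2 difference was -3.22 ± 0.93, and without that library -3.76. At 6 h Ednra had 20.3, 3.51 and 3.77 CPM in PNU, against 14.9, 15.6 and 15.9 CPM in DMSO. PNU replicate 1 was above all DMSO libraries while the other PNU libraries were below them, and the log2 difference was -0.76 ± 0.83 with that library and -2.08 without it.

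Ednrb (ENSMUSG00000022122, chromosome 14, 103814625 to 103844173, minus strand), the second endothelin receptor, was the least abundant of the 10 genes per length. It had 0.0231, 0.0444 and 0.0154 CPM in PNU at 2 h, against 0.299, 0.0934 and 0 CPM in DMSO at 2 h. All 3 PNU libraries and DMSO replicate 3 held fewer than 3 counts, so no fold is given at 2 h. At 6 h the levels were 0.332, 0.122 and 0.139 CPM in PNU and 0.310, 0.240 and 0.361 CPM in DMSO. These are 14, 13 and 21 counts in DMSO and up to 19 counts in PNU, the groups overlapped, and the log2 difference was -0.63 ± 0.73.

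Agtr1a, the angiotensin receptor (ENSMUSG00000049115, chromosome 13, 30336441 to 30382867, plus strand), was low in PNU at 2 h. It had 0.300, 0.0889 and 0.123 CPM in PNU at 2 h, against 2.21, 3.03 and 0.599 CPM in DMSO at 2 h. The PNU values are 13, 4 and 8 counts, near the floor of 3, so the size of the fold is uncertain. The groups did not overlap, although DMSO replicate 3 was the lowest of its group, and the log2 difference was -3.53 ± 0.61, or -3.96 without that library. At 6 h Agtr1a had 0.995, 0.519 and 0.558 CPM in PNU, against 2.17, 2.05 and 1.63 CPM in DMSO. Again no PNU library reached the lowest DMSO library, and the log2 difference was -1.50 ± 0.52. Agtr1b, a close copy of this receptor on another locus, can share reads with it, so the level of each is uncertain.

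Apln, the apelin gene (ENSMUSG00000037010, X chromosome, 48025146 to 48034853, minus strand), was nearly level across the groups except in PNU at 6 h. It had 23.7, 28.4 and 27.1 CPM in PNU at 2 h, against 25.3, 24.4 and 27.9 CPM in DMSO at 2 h, with a log2 difference of 0.03 ± 0.10. At 6 h it had 16.4, 14.6 and 13.8 CPM in PNU, against 29.5, 29.1 and 29.3 CPM in DMSO. The 6 h groups were far apart, with means of 14.9 ± 1.31 CPM in PNU and 29.3 ± 0.248 CPM in DMSO (SD, n = 3 each) and a log2 difference of -0.97 ± 0.10. Its own receptor Aplnr reached at most 0.122 CPM in any library.

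Adm, the adrenomedullin gene (ENSMUSG00000030790, chromosome 7, 110627661 to 110629820, plus strand), had 25.7, 18.8 and 18.2 CPM in PNU at 2 h, against 74.5, 69.8 and 28.7 CPM in DMSO at 2 h. DMSO replicate 3 was close to the PNU libraries but still above them, and the log2 difference was -1.46 ± 0.30, or -1.79 without that library. At 6 h Adm had 41.4, 30.4 and 31.0 CPM in PNU, against 66.4, 61.9 and 62.9 CPM in DMSO. The groups did not overlap, with a log2 difference of -0.90 ± 0.29. An antisense gene, Gm28863, overlaps Adm and stood at 0.015 to 0.659 CPM; the sources used here do not say whether counting used the strand. Antisense genes likewise overlap Ednra (at most 0.367 CPM), Ramp3 (at most 0.047 CPM) and Penk (at most 0.211 CPM).

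The 3 genes for receptor activity-modifying proteins went separate ways. Ramp3 (ENSMUSG00000041046, chromosome 11, 6658521 to 6677475, plus strand) had 2.17, 3.44 and 2.78 CPM in PNU at 2 h, against 0.914, 0.822 and 1.14 CPM in DMSO at 2 h. It had 5.83, 4.06 and 4.74 CPM in PNU at 6 h, against 1.26, 1.09 and 1.14 CPM in DMSO at 6 h. All PNU libraries were above all DMSO libraries at both times, and the log2 differences were 1.54 ± 0.22 at 2 h and 2.07 ± 0.22 at 6 h.

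Ramp2 (ENSMUSG00000001240, chromosome 11, 101246028 to 101259546, plus strand), the usual partner of Calcrl in the vessel wall, had 0.877, 0.644 and 0.631 CPM in PNU at 2 h, against 3.13, 2.71 and 0.993 CPM in DMSO at 2 h. At 6 h it had 0.750, 0.809 and 0.713 CPM in PNU, against 1.73, 2.09 and 1.79 CPM in DMSO. The groups did not overlap at either time, with log2 differences of -1.67 ± 0.35 at 2 h (-2.03 without DMSO replicate 3) and -1.30 ± 0.35 at 6 h. The Ramp2 gene model overlaps Vps25 (1.58 to 2.87 CPM) on the same strand, so reads in the shared stretch cannot be assigned to either and its level is uncertain. Ramp1 (ENSMUSG00000034353, chromosome 1, 91179822 to 91225196, plus strand) had 1.22, 0.600 and 0.662 CPM in PNU at 2 h, against 0.510, 0.560 and 0.930 CPM in DMSO at 2 h. At 6 h it had 1.12, 0.259 and 0.372 CPM in PNU, against 0.442, 0.351 and 0.447 CPM in DMSO. The groups overlapped at both times, and the log2 differences were 0.30 ± 0.49 at 2 h and 0.48 ± 0.51 at 6 h, the second of which was -0.38 without PNU replicate 1.

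Penk, the enkephalin precursor (ENSMUSG00000045573, chromosome 4, 4133531 to 4138819, minus strand), was lower in PNU at both times. It had 22.4, 11.1 and 10.6 CPM in PNU at 2 h, against 29.7, 24.6 and 26.8 CPM in DMSO at 2 h. The groups did not overlap, PNU replicate 1 lay near the lowest DMSO library, and the log2 difference was -0.88 ± 0.28. At 6 h Penk had 9.44, 5.45 and 5.67 CPM in PNU, against 37.1, 35.8 and 38.1 CPM in DMSO, with a log2 difference of -2.43 ± 0.29. The opioid receptor genes were near the floor: Oprm1 reached at most 0.0158 CPM, Oprd1 at most 0.0667 CPM and Oprk1 at most 0.0775 CPM.

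**Figure D2:**
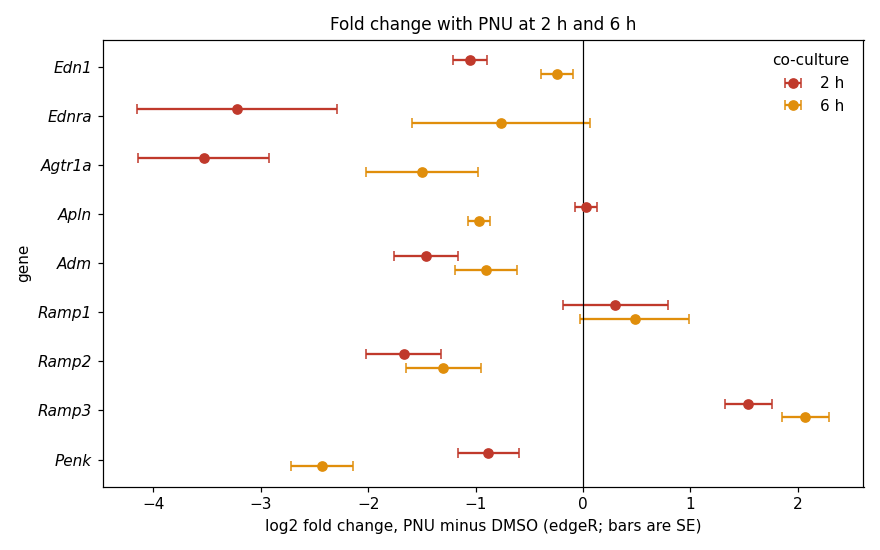
Log2 difference in CPM between PNU and DMSO, with its SE, for 9 of the 10 genes at 2 h and 6 h; Ednrb is left out because its PNU libraries at 2 h held fewer than 3 counts each. Agtr1a (-3.53 at 2 h) and Penk (-2.43 at 6 h) lie far below 0, Ramp3 lies above 0 at both times (1.54 and 2.07), and the bars of Ednra are the widest (0.93 at 2 h).

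Set beside all genes, the PNU differences counted as follows. At 2 h, 3 of the 10 genes (Edn1, Agtr1a and Ramp3) passed edgeR's quasi-likelihood test at a Benjamini-Hochberg adjusted p under 0.05, as did 0.291% of all 17164 genes tested. At 6 h, 3 of the 10 (Apln, Ramp3 and Penk) passed, as did 1.05% of all genes. Groups that did not overlap were found at 2 h for 6 of the 10 genes and for 21.8% of all genes, and at 6 h for 7 of the 10 and for 34.7% of all genes. The median log2 difference of the 10 genes was -1.26 at 2 h, against -0.01 over all genes tested, and -0.83 at 6 h, against 0 over all genes tested. The choice of genes used these contrasts, so nothing is read from these counts.

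The calls at 2 h rested on few libraries. None of the 10 genes passed at 2 h when PNU replicate 2, PNU replicate 3, DMSO replicate 1 or DMSO replicate 2 was left out. Of all genes tested, 0, 0, 1 and 1 passed in these fits. Without PNU replicate 1, 4 of the 10 passed, beside 130 of all genes. Without DMSO replicate 3, 7 of the 10 passed, beside 7724 of all genes. At 6 h the same 3 genes passed whichever single library was left out, beside 22 to 1057 of all genes. Adding near-identical libraries together left 1 library of DMSO at 6 h, 2 of each PNU group and 3 of DMSO at 2 h. These are too few for the calls of that fit to be read.

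Each treatment was also compared between 6 h and 2 h. In PNU, 5 of the 10 genes passed the test of 6 h against 2 h, as did 16.1% of all genes tested, and 8 of the 10 did not overlap between the times, as did 51.1% of all genes. Edn1 averaged 9.21 ± 0.899 CPM at 6 h and 5.75 ± 1.15 CPM at 2 h, with a log2 difference of 0.68 ± 0.16. Agtr1a differed by 2.03 ± 0.61 and Ramp3 by 0.80 ± 0.21 on the log2 scale, both higher at 6 h. Apln, with 14.9 ± 1.31 CPM at 6 h and 26.4 ± 2.45 CPM at 2 h, differed by -0.82 ± 0.10, and Penk, with 6.85 ± 2.24 CPM at 6 h and 14.7 ± 6.67 CPM at 2 h, by -1.10 ± 0.28. Leaving out any single PNU library cut the 5 calls to between 1 and 3, beside 566 to 1710 of all genes. Apln was called each time, Penk without PNU at 2 h replicate 2 or 3 or PNU at 6 h replicate 1, Ramp3 without PNU at 2 h replicate 2 or PNU at 6 h replicate 2, Edn1 without replicate 1 of either PNU group, and Agtr1a in none of these. With near-identical libraries summed, too few libraries were left for calls to be read.

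In DMSO, none of the 10 genes passed the test of 6 h against 2 h, nor did any of all genes tested (0%); 818 genes were at an unadjusted p under 0.05, and DESeq2 called 20. Apln and Penk were higher at 6 h without overlap, by 0.18 ± 0.10 and 0.45 ± 0.27 on the log2 scale, and Ramp1 was lower without overlap, by -0.69 ± 0.51; 9.9% of all genes did not overlap. The PNU difference at 6 h minus that at 2 h passed edgeR's test for 1 of the 10 genes, Apln, as it did for 0.035% of all genes tested. Its value on the log2 scale was -1.0 ± 0.14 for Apln, -1.55 ± 0.39 for Penk and 0.81 ± 0.22 for Edn1. Penk and Edn1 did not pass, and nothing is read from these calls because the choice of genes used these contrasts. Comparisons at the 2 times and within PNU share libraries and are not independent of each other.

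**Figure D3:**
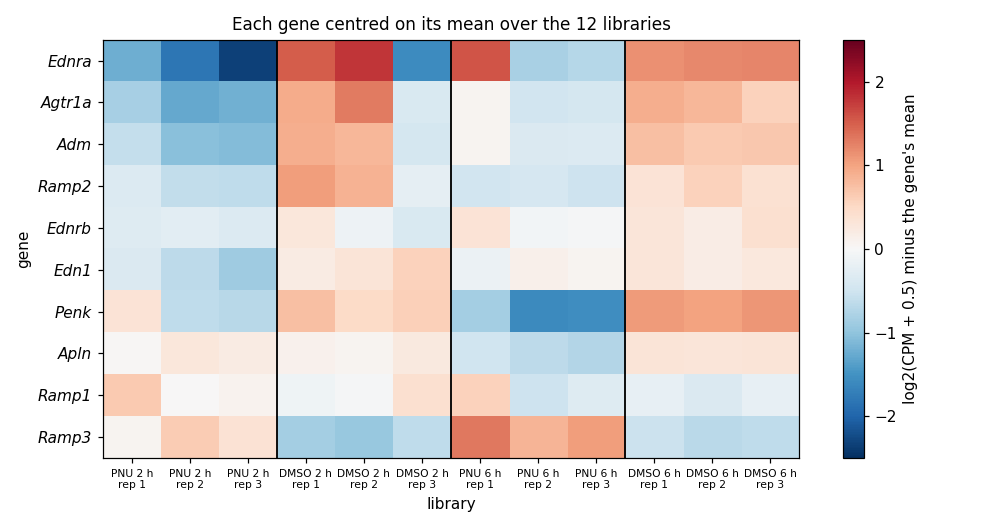
Log2(CPM + 0.5) of the 10 genes, each centred on its own mean over the 12 libraries; rows are genes, columns are libraries in their groups, and the colour gives the centred value. DMSO at 2 h replicate 3 resembles the PNU libraries at 2 h for Ednra, Agtr1a, Adm and Ramp2, and PNU at 6 h replicate 1 resembles the DMSO libraries at 6 h for Ednra.

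Of the libraries that stood apart, DMSO at 2 h replicate 3 was nearer to the PNU mean at 2 h than to the mean of the other DMSO libraries on the log2 scale for 7 of the 10 genes; Edn1, Ramp3 and Penk were nearer to their own group. PNU at 6 h replicate 1 was nearer to the DMSO mean at 6 h for Ednra, Ednrb and Ramp1, and nearer to its own group for the other 7. The differences of Edn1 at 2 h (-0.93 without DMSO replicate 3), Ramp3 at 2 h (1.69) and Penk at 2 h (-0.89) were as large or nearly as large without that library. At 6 h, Apln (-1.04), Ramp3 (1.92) and Penk (-2.73) kept their size without PNU replicate 1.

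The other genes of these pathways were taken as lists by role, 109 genes in all, of which 71 were tested and 16 held fewer than 3 counts in every library, among them the ligand genes Edn2 and Edn3, the renin gene Ren1 and Oprm1. At 2 h none of the 71 passed edgeR's test in either direction. Of the 71, 29.6% (21 genes) were at an unadjusted p under 0.05, against 30.0% of all genes tested, and DESeq2 called 21.1% (15 genes), against 14.2% of all genes. At 6 h 1 fell and 70 did not pass edgeR's test, with 23.9% (17 genes) at an unadjusted p under 0.05, against 15.6% of all genes, and 8.45% (6 genes) called by DESeq2, against 5.03% of all genes. DESeq2 ran on unfiltered counts, and its shares divide its calls by the number of genes that edgeR tested. These shares were not tested against each other. The median log2 difference of the 71 was 0.01 at 2 h and 0.03 at 6 h, against -0.01 and 0 over all genes tested.

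Calcrl, the receptor that pairs with the Ramp products, was the gene that fell at 6 h. It had 11.9, 13.8 and 14.4 CPM in PNU at 6 h, against 26.2, 27.1 and 28.9 CPM in DMSO at 6 h, with a log2 difference of -1.03 ± 0.16 and an edgeR adjusted p of 0.0131. Every PNU library was under every DMSO library (3 of 3). The call was lost when PNU replicate 2 or 3 or any single DMSO library at 6 h was left out (edgeR adjusted p 0.0599 to 0.0813). It was kept in 7 of 13 alternatives, among them DESeq2 (adjusted p 1.56e-06). The fit of summed libraries, which left 1 library of DMSO at 6 h, is not read. At 2 h the levels were 19.9, 18.7 and 19.2 CPM in PNU and 16.8, 28.6 and 22.7 CPM in DMSO, which overlap.

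Genes of the endothelin and angiotensin lists did not pass edgeR's test at either time. Of the endothelin ligand and converting enzyme list, 0 of 3 tested genes passed, with 1 at an unadjusted p under 0.05 at 2 h and 0 at 6 h, and DESeq2 called 1 at 2 h (Ece2, a second converting enzyme) and 0 at 6 h. Ece1, which cuts the endothelin precursor, had 179, 163 and 162 CPM in PNU at 2 h, against 277, 242 and 138 CPM in DMSO at 2 h. Of the angiotensin system 0 of 7 passed edgeR's test, with 4 at an unadjusted p under 0.05 at 2 h and 3 at 6 h, and DESeq2 called 4 at 2 h (Agt, Agtr1b, Agtrap and Atp6ap2) and 1 at 6 h (Agtr1b). Agt, the angiotensin precursor, had 6.02, 1.44 and 1.57 CPM in PNU at 2 h, against 29.1, 22.3 and 3.39 CPM in DMSO at 2 h, with an edgeR adjusted p of 0.0954. At 6 h it had 15.8, 2.88 and 3.07 CPM in PNU, against 31.2, 28.0 and 29.4 CPM in DMSO, with an adjusted p of 0.279. Replicate 3 of DMSO at 2 h and replicate 1 of PNU at 6 h lay away from their groups for Agt as they did for Ednra. Agtr1b had 0.461, 0.444 and 0.462 CPM in PNU at 2 h, against 2.00, 1.40 and 0.867 CPM in DMSO at 2 h (adjusted p 0.116), and 0.907, 0.107 and 0.139 CPM in PNU at 6 h, against 1.59, 1.15 and 1.36 CPM in DMSO at 6 h (adjusted p 0.184). Ace, which forms angiotensin II, stood at 0.267 to 1.09 CPM over all libraries.

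Among the 19 tested genes that process or break down neuropeptides, none passed edgeR's test in PNU against DMSO at either time. At an unadjusted p under 0.05 were 7 at 2 h and 4 at 6 h, and DESeq2 called 3 at 2 h (Furin, Mme and Pcsk1) and 2 at 6 h (Mme and Pcsk5). Mme, the peptidase neprilysin that cleaves enkephalins, had 3.16, 2.31 and 2.57 CPM in PNU at 2 h, against 8.35, 12.9 and 3.64 CPM in DMSO at 2 h (adjusted p 0.0805). At 6 h Mme had 8.43, 2.76 and 2.57 CPM in PNU, against 17.4, 19.3 and 18.2 CPM in DMSO (adjusted p 0.0848). Furin, a proprotein convertase, had 289, 281 and 285 CPM in PNU at 2 h, against 195, 160 and 224 CPM in DMSO at 2 h (adjusted p 0.0545). Ackr3, an atypical receptor that takes up adrenomedullin, had 60.9, 63.2 and 61.0 CPM in PNU at 2 h, against 24.7, 22.8 and 48.0 CPM in DMSO at 2 h (adjusted p 0.077). Of the opioid list, the 3 genes abundant enough to be tested were Pomc, Ogfr and Ogfrl1, so Oprm1, Oprd1 and Oprk1 were not tested. None of these 3 passed at either time by edgeR or DESeq2, and 0 were at an unadjusted p under 0.05.

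**Figure D4:**
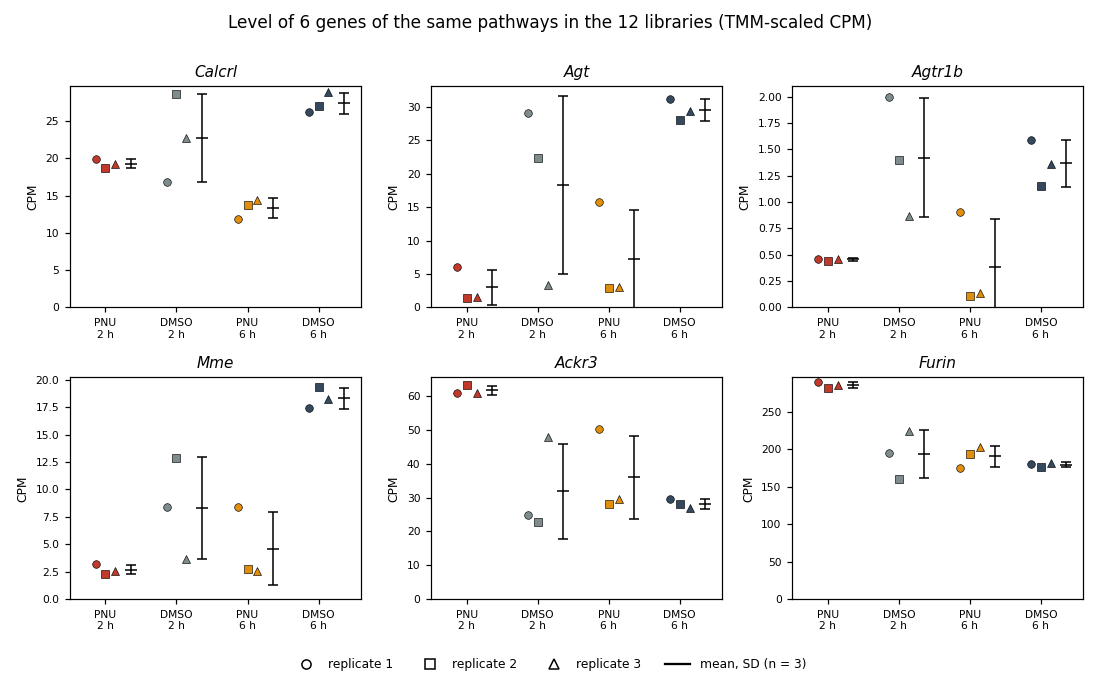
CPM of 6 genes of the same pathways in each library, drawn as for the 10 genes, with bars for the mean and SD of 3 libraries that end at 0 where they would pass below it. Calcrl is lower in all 3 PNU libraries at 6 h (11.9 to 14.4 CPM) than in all 3 DMSO libraries (26.2 to 28.9 CPM), and Agt and Mme have 1 library of DMSO at 2 h and 1 of PNU at 6 h away from their groups.

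In PNU cultures, 6 of the 71 pathway genes rose at 6 h against 2 h and 9 fell, by edgeR's adjusted p. These 15 are 21.1% of the 71, beside 16.1% of all genes tested, and the difference in share was not tested. Those that rose were Ctsl, a lysosomal protease (log2 difference 0.57 ± 0.10, adjusted p 0.00867), the receptor kinase Grk5 (0.50 ± 0.10, 0.0102), the prorenin receptor Atp6ap2 (0.45 ± 0.11, 0.0214), Rgs2, a brake on Gq signalling (1.57 ± 0.41, 0.0286), the aminopeptidase Anpep (1.79 ± 0.55, 0.0485) and the convertase Pcsk5 (1.64 ± 0.51, 0.0488). Those that fell included the second adrenomedullin gene Adm2 (-1.67 ± 0.24, 0.00414), the peptidase Thop1 (-0.63 ± 0.11, 0.00852), Furin (-0.58 ± 0.11, 0.00863), the G protein gene Gna13 (-0.40 ± 0.09, 0.0155), the oxytocin receptor Oxtr (-1.87 ± 0.47, 0.0248) and the kinase Grk6 (-0.44 ± 0.13, 0.0375). Rgs16, another brake on G protein signalling (-0.71 ± 0.22, 0.0466), and the kinase Grk2 (-0.35 ± 0.11, 0.0488) fell too. In the adrenomedullin and calcitonin list 2 of 4 tested genes fell, Adm2 and Calcrl (-0.52 ± 0.16, 0.0451). Leaving out any single PNU library kept 5 to 7 of the 15 calls. Summing near-identical libraries left too few libraries for calls to be read, although that fit is among the alternative settings counted next. Over 13 alternative settings, the calls of Adm2, Ctsl, Furin, Grk5 and Thop1 were kept in 12, that of Gna13 in 8, those of Atp6ap2 and Oxtr in 7, those of Rgs2 and Grk6 in 6, those of Anpep, Pcsk5 and Calcrl in 5, that of Rgs16 in 4 and that of Grk2 in 2. By edgeR, none of the 71 passed over time in DMSO (8 at an unadjusted p under 0.05, and 1, Tac1, called by DESeq2), and none passed for the PNU effect at 6 h minus that at 2 h (11 at an unadjusted p under 0.05, and 0 called by DESeq2).

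Markers of other cells were measured because several of the 10 genes are typical of vessels. The summed level of 12 endothelial markers was 5.26 to 5.96 CPM in PNU at 2 h and 6.00 to 8.64 CPM in PNU at 6 h, against 5.20 to 12.7 CPM in DMSO at 2 h and 9.54 to 10.5 CPM in DMSO at 6 h. Only 2 of the 12 had a median over 1 CPM, and the defining genes Pecam1 and Cdh5 reached at most 0.349 and 0.366 CPM, Cldn5 held fewer than 3 counts in every library, and Plvap stood at 1.39 to 8.10 CPM. The list was split at 6 h, where Plvap was lower and Pecam1 and Cdh5 higher in all 3 PNU libraries than in all 3 DMSO libraries. The sum of 12 pericyte and smooth muscle markers was 4570 to 5140 CPM in PNU at 2 h and 4360 to 4470 CPM in PNU at 6 h, against 3490 to 4380 CPM in DMSO at 2 h and 3610 to 3680 CPM in DMSO at 6 h, with 9 of 12 over a median of 1 CPM. Most of the sum was Acta2 (1450 to 2470 CPM) and Pdgfrb (927 to 1380 CPM), and the list was split. At 6 h Acta2, Tagln, Cnn1, Rgs5 and Mcam were higher and Des lower in all PNU libraries than in all DMSO libraries, and at 2 h Kcnj8 and Cspg4 were higher and none lower. Kcnj8 at 2 h was at or under the floor, with 0.0222 to 0.0461 CPM in PNU and 0 CPM in DMSO, so its direction is uncertain. Notch3 had 82.3, 48.8 and 51.9 CPM in PNU at 2 h, against 256, 209 and 43.6 CPM in DMSO at 2 h, and 232, 66.8 and 67.7 CPM in PNU at 6 h, against 204, 195 and 198 CPM in DMSO at 6 h.

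The astrocyte list (4 genes) summed to 1.62 to 2.33 CPM in PNU at 2 h and 2.15 to 3.01 CPM in PNU at 6 h, against 2.35 to 7.10 CPM in DMSO at 2 h and 5.22 to 5.59 CPM in DMSO at 6 h. S100b alone had 1.04 to 6.40 CPM, and Gfap reached at most 0.333 CPM. This list was split at 2 h, where Gfap was higher and S100b lower in all PNU libraries than in all DMSO libraries. At 6 h only S100b was apart, again lower in PNU. The adipocyte list (4 genes) summed to 2.62 to 5.01 CPM in PNU at 2 h and 7.38 to 12.1 CPM in PNU at 6 h, against 4.76 to 16.6 CPM in DMSO at 2 h and 16.5 to 17.0 CPM in DMSO at 6 h. Most of that sum was Fabp4 (2.47 to 13.3 CPM). At 6 h Adipoq, Fabp4 and Plin1 were lower in all PNU libraries than in all DMSO libraries, and none of this list was apart at 2 h. The Müller glia list (12 genes, 7 over a median of 1 CPM) summed to 7760 to 7940 CPM in PNU at 2 h and 6590 to 7530 CPM in PNU at 6 h, against 6080 to 7580 CPM in DMSO at 2 h and 6600 to 6640 CPM in DMSO at 6 h, and Vim, an intermediate filament that fibroblasts share, stood at 5870 to 7540 CPM. Among the other genes of this list, Sox9 ranged over 63 to 305 CPM, glutamine synthetase (Glul) over 62 to 93.8 CPM, Dkk3 over 9.62 to 68.9 CPM, Clu over 5.47 to 44.5 CPM and Apoe over 5.48 to 13.9 CPM. Slc1a3 stood at 0.431 to 3.70 CPM, Lhx2 at 0.31 to 0.877 CPM, Rlbp1 at 0.0444 to 0.296 CPM, Aqp4 at 0 to 0.214 CPM and Kcnj10 at 0 to 0.108 CPM. Sox2 had 0.254, 8.44 and 9.02 CPM in PNU at 2 h and 0.0872, 9.22 and 9.28 CPM in PNU at 6 h, against at most 0.0473 CPM in the DMSO libraries. The list was thus detected in part, with Rlbp1, Aqp4 and Kcnj10 low. It was also split between PNU and DMSO. At 2 h Glul, Sox9, Sox2 and Vim were higher and Rlbp1 lower in all PNU libraries than in all DMSO libraries. Rlbp1 was then near the floor, at 0.0444 to 0.0615 CPM in PNU and 0.0631 to 0.131 CPM in DMSO, so the split at 2 h is uncertain. At 6 h Sox2 and Lhx2 were higher and Sox9 lower. Sox9 had 218 to 305 CPM in PNU at 2 h, against 83.5 to 186 CPM in DMSO. At 6 h it had 63.0 to 70.5 CPM in PNU, against 73.3 to 75.0 CPM in DMSO. The fibroblast list (10 genes) summed to 13000 to 14700 CPM in PNU at 2 h and 14700 to 15800 CPM in PNU at 6 h, against 13300 to 18000 CPM in DMSO at 2 h and 14700 to 14800 CPM in DMSO at 6 h. Lum was lower in all PNU libraries than in all DMSO libraries at 2 h. The list was split at 6 h, where Col1a1 and Thy1 were higher and Dcn and Lum lower in all PNU libraries. Dcn then averaged 24.2 CPM in PNU and 52.6 CPM in DMSO. The leukocyte and microglia list (6 genes) summed to 160 to 351 CPM in the PNU libraries and 309 to 375 CPM in the DMSO libraries, nearly all of it Tmem119 (152 to 373 CPM), while Ptprc reached at most 0.232 CPM. At 6 h Ptprc, Aif1 (at most 0.157 CPM in any library) and Csf1r were higher in all PNU libraries than in all DMSO libraries. The RPE list (10 genes) summed to 7.50 to 9.24 CPM in the PNU libraries and 6.76 to 7.66 CPM in the DMSO libraries, most of it Rdh5 (5.17 to 8.18 CPM), with Pmel next (0.394 to 1.06 CPM). Rdh5 was higher in PNU without overlap at both times, and Best1 and Mlana (at most 0.133 CPM in any library) were lower at 6 h. Rpe65, the visual cycle enzyme of RPE cells, reached at most 0.0461 CPM, and neuronal markers summed to at most 0.644 CPM. The part of these differences in cell type markers in the levels of the 10 genes was not tested, and in these whole cultures fewer cells of a type and less RNA per cell cannot be told apart.

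By profile over the 12 libraries, the genes most like 4 of the members were named by the smallest root mean square difference of centred log2(CPM + 0.5) values. For Edn1 these were Irgm1 (0.207), Aldh1a7 (0.215) and Ifi47 (0.216), and for Agtr1a Marcks (0.176), Map7d3 (0.186) and Cyp1b1 (0.188). For Ramp3 they were Flt4 (0.257), Elfn1 (0.273) and Plxna4 (0.308), and for Penk Fos (0.415), Col6a2 (0.429) and Trib2 (0.432). The profiles share their libraries and depths, so likeness is a description and carries no test.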

How the data were processed

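RNA was measured in 12 libraries, 3 in each of 4 groups. Per the labels' protocols, the authors used fastp 0.23.2 for trimming, STAR 2.5.2b for alignment to GRCm38 and featureCounts (Subread 1.5.2) for counting; DESeq2 is listed without a role in the submitters' processing notes. Each deposited table holds the raw counts per gene of 1 library. Strand and multi-mapping settings are not given in the sources used here. Symbols came from GENCODE M21 for 48970 of 49315 gene identifiers.

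Genes were filtered with filterByExpr of edgeR 4.0.16 (R 4.3.3), TMM factors computed, and a quasi-likelihood model of 4 group means fitted to all 12 libraries, with a common biological coefficient of variation of 0.198. Benjamini-Hochberg adjustment ran over the 17164 genes tested in each of 5 contrasts, with a threshold of 0.05. The SE of a log2 difference is the difference over the root of its F statistic. On simulated counts, 2-fold changes were recovered for 71% of 100 genes at 2 h and 70% at 6 h, and 4-fold changes for 94% and 95%, with 7 and 9 false calls. Unlike the real ones, the simulated replicates had even spread.

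The 10 genes and the pathway and marker lists were chosen with earlier results of these data known. Named pathway genes were all that passed where 12 or fewer did, otherwise the 6 of smallest p in each direction, plus Agt, Ace, Ece1, Agtr1b, Aplnr, Calcrl, Oprm1, Oprd1, Oprk1 and Mme, and of the markers Pecam1, Cdh5, Acta2, Glul and Rpe65; any further gene was picked with its values in view. Same-numbered replicates deviated together for PNU at 6 h and PNU at 2 h (correlations 0.256, 0.199 and 0.191). Replicates 2 and 3 did so across numbers as well (0.196 and 0.181), so these values do not show that the numbers pair cultures. A replicate block left the same 5 of the 10 genes called over time in PNU. For the other contrasts the correlations of same-numbered replicates were between -0.0489 and 0.0798. Alternatives were another scaling (RLE), no filter, DESeq2 1.42.0, a fit of the groups compared alone, the replicate block, near-identical libraries summed, both libraries that stood apart left out, and each library left out in turn.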

Additional observations from a re-analysis of the deposited data

Results flagged for a closer look

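Apln, the apelin gene, was the 1 gene of the 10 for which the PNU difference at 6 h minus that at 2 h passed edgeR's test. The log2 difference between PNU and DMSO was -0.97 ± 0.10 at 6 h and 0.03 ± 0.10 at 2 h. The 6 h value minus the 2 h value was -1.0 ± 0.14 (edgeR, SE). Apln averaged 14.9 CPM in PNU at 6 h, against 29.3 CPM in DMSO at 6 h, and was lower in 3 of 3 PNU libraries. Because Apln was picked with earlier results known, no p-value is given and the call is only a description. The difference was not called with a replicate block, or without PNU at 2 h replicate 2 or 3, PNU at 6 h replicate 2 or 3, DMSO at 2 h replicate 2, or any single DMSO library at 6 h. Summing near-identical libraries left 1 library of DMSO at 6 h, so the calls of that fit are not read.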

How the results depend on the processing

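Counts of genes called are given here for all genes tested, for the pathway lists and for the 10 genes. RLE scaling kept every count within 1.5 times. Without the filter, all genes called were 140 at 2 h and 15 for the difference between times; pathway calls were 1 at 2 h and 2 at 6 h, and 3 of the 10 were called over time in PNU. DESeq2 called 2431 genes at 2 h, 863 at 6 h, 20 over time in DMSO and 238 for the difference, with 15, 6 and 1 pathway genes in the first 3 and 7, 5 and, for the difference, 2 of the 10. A fit of the groups compared alone called 0 genes at 2 h, 1646 at 6 h and 5311 over time in PNU, 8 pathway genes at 6 h and 23 over time in PNU, and 0 of the 10 at 2 h and 6 at 6 h; it was not run for the difference. The replicate block, whose numbers are not shown to pair cultures, called 311 genes at 2 h, 296 at 6 h and 0 for the difference. It called 1 pathway gene at 2 h and 2 at 6 h, and 6 of the 10 genes at 2 h and 0 for the difference. Summing near-identical libraries left 3 libraries of DMSO at 2 h, 1 of DMSO at 6 h and 2 of each PNU group. These are too few for the calls of that fit to be read. Without both libraries that stood apart, all genes called were 9080 at 2 h, 4981 at 6 h, 6170 over time in PNU, 117 over time in DMSO and 3788 for the difference, pathway genes 41, 27, 25, 2 and 21, and of the 10 genes 8, 7, 9, 0 and 6. With each library left out in turn, all genes called ran from 0 to 7724 at 2 h, 22 to 1057 at 6 h, 566 to 1710 over time in PNU, 0 to 4 over time in DMSO and 0 to 2947 for the difference; pathway genes from 0 to 33, 0 to 8, 5 to 14, 0 to 0 and 0 to 14; and of the 10 from 0 to 7, 3 to 3, 1 to 3, 0 to 0 and 0 to 5. The highest counts at 2 h and for the difference came without DMSO at 2 h replicate 3. Of the log2 differences of the 10 genes over all alternatives, 648 moved by less than 1 replicate SD and 50 by more. The causes were not tested. At these depths, levels under 0.0458 to 0.0692 CPM are not detectable above a count of 3.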

Other observations

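Of the list of other vasoactive peptides and receptors, none of the 14 tested genes passed edgeR's test in PNU against DMSO at either time; 3 at 2 h and 6 at 6 h were at an unadjusted p under 0.05, and DESeq2 called 2 at 2 h (Bdkrb2 and Oxtr) and 1 at 6 h (Tac1). The genes given here were picked after their values were seen. Bdkrb2, a bradykinin receptor, had 0.692, 0.600 and 0.646 CPM in PNU at 2 h, against 0.0879, 0.243 and 0.173 CPM in DMSO at 2 h (edgeR adjusted p 0.063), with no overlap. Tac1, the substance P precursor, had 3.35, 0.534 and 0.914 CPM in PNU at 6 h, against 5.04, 4.99 and 5.14 CPM in DMSO at 6 h (adjusted p 0.143). Nppc, the precursor of C-type natriuretic peptide, had 2.70, 1.02 and 1.15 CPM in PNU at 2 h, against 0.176, 0.112 and 1.23 CPM in DMSO at 2 h, where DMSO replicate 3 lay among the PNU libraries (adjusted p 0.321).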
